A study of Mus musculus with 8 samples.

Results

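The miRNAs described here are 5 whose expression is classically tied to leukocytes: mmu-miR-142-3p, mmu-miR-142-5p, mmu-miR-223, mmu-miR-150 and mmu-miR-155, written below without the prefix that marks mouse. They were chosen by name from the 611 mouse miRNAs on the array, and all 5 names were found. The samples came from mammary glands of 5-week-old female mice that carry a beta actin-GFP reporter, a green fluorescent protein driven by a promoter active in most cell types, on the FVB/n strain. No mouse was treated and no gene was deleted, so every group shares the same genotype and age. Of the 8 arrays, 3 held total RNA of terminal end buds (TEBs, the growing tips of the ductal tree), 2 held mature ducts and 3 held distal stroma, all micro-dissected and read in a single colour on Agilent miRNA arrays. The labels do not say whether the arrays of a tissue came from separate mice or from pooled tissue, so the p-values measure only the spread between these samples, which may be technical.

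Mature miRNAs guide silencing complexes to messenger RNAs, mainly through bases 2 to 8 (the seed). miR-142 is made in nearly all blood cells, and both arms of its hairpin give a mature miRNA. miR-223 is most abundant in neutrophils and other myeloid cells, miR-150 in mature B, T and NK lymphocytes, and miR-155, cut from the non-coding transcript of Mir155hg, accumulates in activated lymphocytes and macrophages. In the pubertal mammary gland, macrophages and eosinophils gather around the TEBs, and the surrounding fat pad holds a lymph node in the inguinal gland. Whether the stroma pieces held any lymph node is not given in the sources used here. In bulk tissue, fewer leukocytes and less of a miRNA in each leukocyte cannot be told apart.

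The mature sequences are shown to tell which molecules the probes were named for, since the 2 arms of miR-142 are easily confused and behaved differently on the arrays. RefSeq (GRCm38.p6) held 4 of the 5, all on the plus strand, and they are written 5′ to 3′ with the seed in capitals.
miR-142-3p: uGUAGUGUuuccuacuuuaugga
miR-142-5p: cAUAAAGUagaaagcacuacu
miR-223: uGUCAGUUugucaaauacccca
miR-155: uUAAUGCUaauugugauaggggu

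The 4 seeds were distinct, and 0 of the 1679 mature mouse sequences in the RefSeq table shared any of them outside its own entry. Whether the array probes also bind other miRNAs was not tested. The miR-142 arms lay at chr11:87756903-87756925 (3p) and chr11:87756867-87756887 (5p), both within the Mir142 hairpin, which the annotation also places inside the longer Mir142b record. RefSeq names these arms miR-142a-3p and miR-142a-5p. miR-223 lay at chrX:96242884-96242905, inside the hairpin Mir223 and the long non-coding RNA gene F630028O10Rik. miR-155 lay at chr16:84714143-84714165, within the long non-coding RNA gene Mir155hg.

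The deposited value of a miRNA is its total gene signal, the summed and background-subtracted brightness of its probes, and it carries the scanner software's own error and detection flag. Between 23.2% and 27.7% of the mouse miRNAs were detected on each array, and the summed signal of an array ranged from 54239 to 88828 units. Each array was scaled so that its 75th percentile over the 108 miRNAs detected on all 8 arrays was equal, with factors of 0.75 to 1.36. The tests covered 167 miRNAs, each detected throughout at least 1 tissue. Across these miRNAs, which are not independent of each other, the log2 values of arrays of the same tissue correlated with r of 0.956 to 0.987 and those of different tissues with r of 0.645 to 0.926. The labels of epithelium and stroma were checked with 6 epithelial miRNAs (the miR-200 family and miR-205). All 6 were detected on the 5 epithelial arrays and none was detected in stroma. This does not check the TEB and duct labels against each other.

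Detection divided the leukocyte miRNAs. miR-142-3p and miR-223 were detected on 8 of 8 arrays, with a signal at least 3.85 times its error. miR-142-5p, miR-150 and miR-155 were detected on 0 of 8 arrays, and none of their 24 signals exceeded 2.13 times its error. Most of the array behaved like these 3, since 66.8% of all mouse miRNAs were detected on no array and 17.7% on all 8. Signals of different miRNAs come from different probes and their levels are not compared.

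miR-223, the myeloid miRNA, gave the clearer signal of the detected pair. Its scaled signal was 506, 538 and 546 units on stroma replicates 1, 2 and 3. It was 336 and 321 units on duct replicates 1 and 2. It was 255, 391 and 397 units on TEB replicates 1, 2 and 3. The 3 stroma arrays were thus the 3 highest of the 8, with no overlap with either epithelial fraction, while the duct values lay within the range of the TEB values. The tissue means were 529.9 ± 20.7 units in stroma (SD, n = 3), 348 ± 80.2 in TEBs (SD, n = 3) and 329 ± 11.0 in ducts (SD, n = 2). In that order only the step from stroma downwards exceeded the spread between arrays, and TEBs and ducts did not differ beyond theirs. The spread within TEBs came from replicate 1, the lowest array, and the coefficient of variation was 23.0% there against 3.91% in stroma and 3.34% in ducts.

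miR-142-3p, the miRNA of blood cells in general, was weaker and less even. Its scaled signal was 50.5, 106 and 44.5 units on stroma replicates 1, 2 and 3. It was 32.0 and 37.7 units on duct replicates 1 and 2. It was 38.5, 50.4 and 49.2 units on TEB replicates 1, 2 and 3. Stroma replicate 2 stood above all other arrays, the other 2 stroma arrays lay within or just above the TEB range, and both duct arrays were below every TEB and stroma array. The means were 67.1 ± 34.0 units in stroma (SD, n = 3), 46.1 ± 6.54 in TEBs (SD, n = 3) and 34.8 ± 3.99 in ducts (SD, n = 2). TEBs were not below stroma beyond the spread of stroma, and the step from TEBs to ducts did not pass the test given below. The coefficient of variation was 50.7% in stroma, 14.2% in TEBs and 11.5% in ducts.

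**Figure D1:**
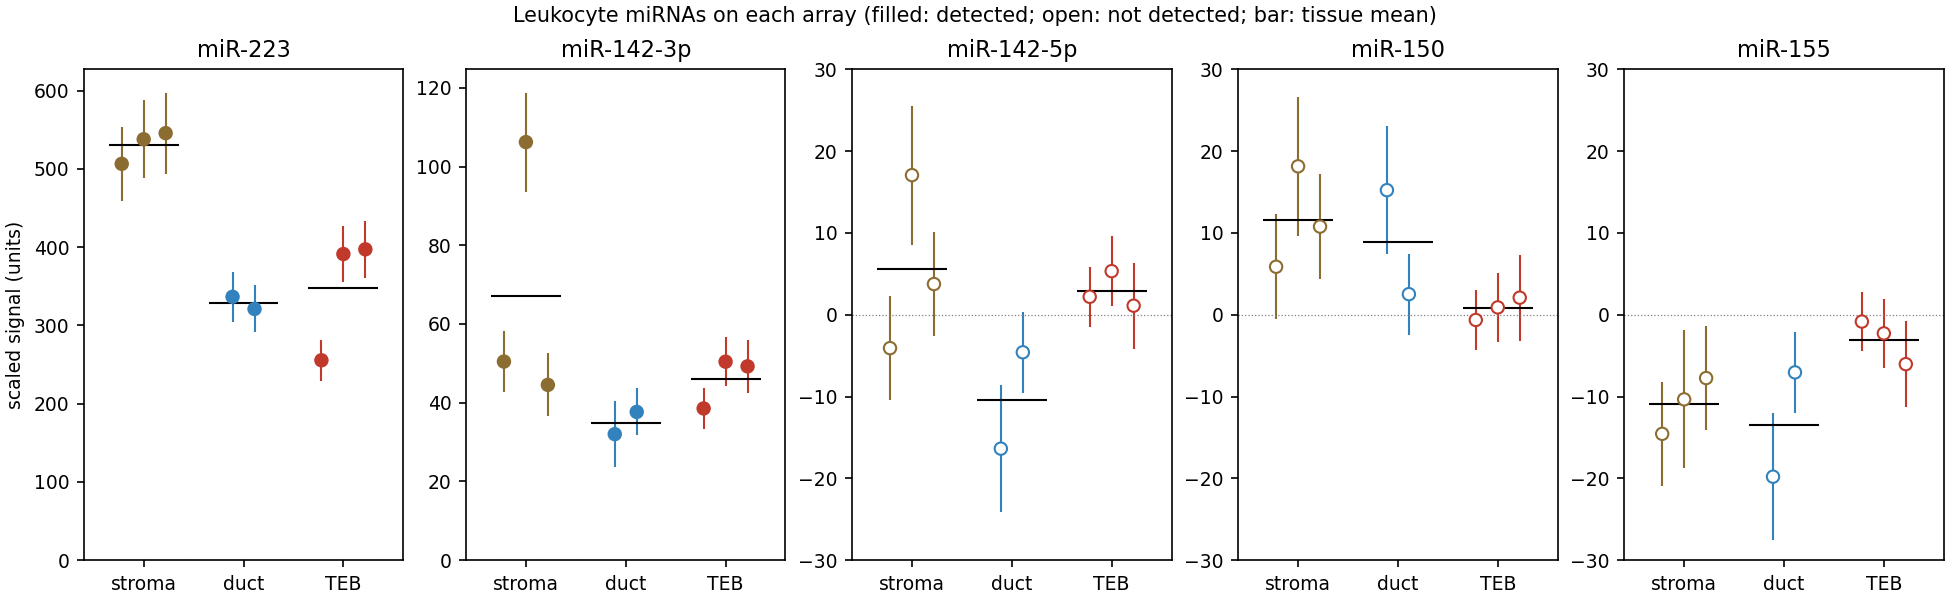
Scaled signal of the 5 leukocyte miRNAs (units, linear axes of different height) on each array by tissue, replicates in order from left to right. Filled points were detected and open points were not, vertical lines are the scanner software's error and black bars the tissue means. miR-223 lies above 500 units on all 3 stroma arrays and below 400 on the other arrays, and stroma replicate 2 stands alone for miR-142-3p at 106 units.

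Stroma replicate 2 was also the highest array for 2 members that were not detected. On that array miR-142-5p, the other arm of the hairpin, had a scaled signal of 17.1 ± 8.51 units (scanner error), and on the other arrays it lay between -16.4 and 5.32 units. miR-150, the lymphocyte miRNA, had 18.1 ± 8.51 units there, against 5.86 and 10.8 units on the other stroma arrays. It had 15.2 and 2.51 units on the duct arrays and -0.64, 0.89 and 2.08 units on the TEB arrays. All of these were flagged as not detected, so no order between the tissues is read from them and no fold change is given. The flag is not a fixed level: on stroma replicate 2 the lowest detected miRNA had 11.9 units, less than miR-142-5p and miR-150 there. miR-155 had a negative signal on 8 of 8 arrays, from -19.8 to -0.84 units. A negative signal means that the probes were no brighter than the local background, and it does not show that the miRNA was absent.

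The miR-142-3p value of stroma replicate 2 was set beside the other miRNAs of that array. Its miR-142-3p signal was 2.10-fold that of the next stroma array (1.07 on the log2 scale), which was the largest such lead on that array among the 108 miRNAs detected everywhere. The next was 0.76, for miR-328. Of the 108 miRNAs, 54 were higher on that array than on both other stroma arrays, and miR-223 was not one of them, with a difference of -0.02 from the higher of the others. Such leads were not limited to that array: on stroma replicate 3, 43 of the 108 were higher than on both others, with a largest lead of 1.39 for miR-689. What set the array apart for miR-142-3p was not tested.

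In the comparison of TEBs with stroma, miR-223 was lower in TEBs and miR-142-3p did not pass the test. This comparison sets the growing epithelium against distal stroma, not against the stroma next to the TEBs. miR-223 differed by -0.64 on the log2 scale (SE 0.18, 95% interval -1.07 to -0.20), a 1.55-fold lower level, with an adjusted p of 0.0199 (limma, Benjamini-Hochberg over all 167 miRNAs). It was lower in 3 of 3 TEB arrays than in every stroma array. TEBs and stroma were separated in one direction or the other for 71.9% of the tested miRNAs, 120 of 167, with TEBs below for 81. miR-142-3p differed by -0.44 (SE 0.33, 95% interval -1.24 to 0.36, adjusted p = 0.289 by limma). Of the 2 members tested 1 therefore passed, and across all tested miRNAs 64.7% passed, 34 higher and 74 lower in TEBs with a median difference of -0.28. A call for 1 of 2 is close to that background, and the value for miR-223 ranked 58th of 167 from the lowest. Leaving out stroma replicate 2 raised its adjusted p to 0.0540 (limma), and leaving out TEB replicate 1, the lowest array, reduced the difference to -0.40 (adjusted p = 0.0164). The call was also lost with the scaling over all mouse miRNAs (adjusted p = 0.491 by limma), with no scaling (0.158) and by the methods' t-test after adjustment (0.0645).

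In the comparison of ducts with stroma, both detected members had lower values in ducts and neither passed the adjusted threshold. miR-223 differed by -0.69 (SE 0.20, 95% interval -1.17 to -0.20), a 1.61-fold lower level with an unadjusted p of 0.0127 and an adjusted p of 0.0558 (limma). miR-142-3p differed by -0.84 (SE 0.37, 95% interval -1.74 to 0.06, adjusted p = 0.173 by limma). Thus 0 of 2 members passed with limma, where 21.6% of all tested miRNAs passed, 16 higher and 20 lower with a median of -0.09. At an unadjusted p under 0.05 miR-223 passed, as did 59 of the 167 tested, and it passed by the methods' t-test after adjustment, as did 26 of the 167. From the lowest, miR-142-3p ranked 15th and miR-223 21st of the 167. For both miRNAs the duct arrays lay below all 3 stroma arrays, and ducts and stroma were separated in one direction or the other for 42.5% of the tested miRNAs. The call for miR-223 turned on the settings: it passed under 10 of 22 alternatives, among them quantile normalization (-0.73, adjusted p = 0.0162 by limma) and leaving out TEB replicate 1 (-0.44, 95% interval -0.68 to -0.20, adjusted p = 0.0249), where both the scaling and the spread estimate were computed anew.

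Between TEBs and ducts, the comparison of the growing and the mature epithelium, neither detected member differed beyond the spread. miR-223 differed by 0.05 (SE 0.20, 95% interval -0.43 to 0.54, adjusted p = 0.856 by limma). miR-142-3p differed by 0.40 (SE 0.37, 95% interval -0.50 to 1.30, adjusted p = 0.435 by limma). Here 0 of 2 members passed with limma, 0 at an unadjusted p under 0.05 (82 of all 167 tested) and 0 by the methods' t-test after adjustment (12 of all tested), and 24.6% of all tested miRNAs passed with limma, 19 higher and 22 lower with a median of -0.10. The intervals leave room for a miR-142-3p level up to 2.46-fold higher in TEBs, so a missed threshold does not show equal levels. That width includes the spread of stroma. For miR-142-3p the interval was -0.07 to 0.86 with only the 2 tissues compared and -0.09 to 0.68 without stroma replicate 2, and neither fit passed. Its difference ranged from 0.03 with no scaling to 0.95 with the scaling over all mouse miRNAs, and was 0.07 without duct replicate 1. For miR-142-3p each TEB array was higher than both duct arrays, a separation that 65.3% of the tested miRNAs had in one direction or the other.

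**Figure D2:**
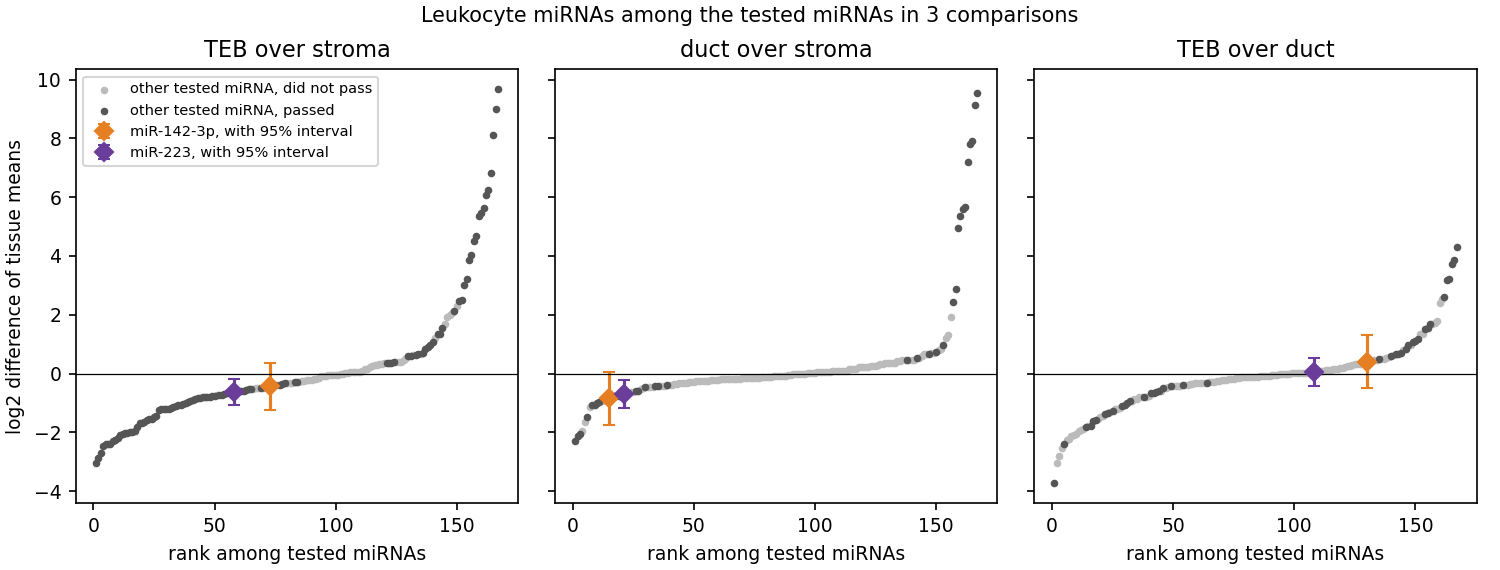
Log2 difference of tissue means (vertical axis) for the 167 tested miRNAs in rank order (horizontal axis) in the 3 comparisons. Dark points passed an adjusted p of 0.05 (limma) and light points did not. The diamonds with 95% intervals are miR-223 and miR-142-3p, which stand at ranks 58 and 73 in TEBs over stroma, 21 and 15 in ducts over stroma, and 108 and 130 in TEBs over ducts.

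When the 5 epithelial arrays were set against the 3 stroma arrays, miR-223 was lower by -0.66 on the log2 scale, with every epithelial array below every stroma array. The exact two-sided permutation test gave p = 0.0179, the smallest that 56 arrangements allow. A separation of this kind in either direction was found for 33.5% of the tested miRNAs, 56 of 167, of which 34 were lower in epithelium. For miR-142-3p the difference was -0.60 with overlapping arrays (exact permutation p = 0.0893). Within the pairs of tissues the same test cannot go below 0.1, and miR-223 reached that limit against stroma in both TEBs and ducts. Before scaling, the miR-223 signals were 496, 448 and 401 units in stroma, 449 and 400.1 in ducts and 254, 413 and 379.9 in TEBs, and the tissues overlapped in every pair.

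All 3 tissues were present in both of the 2 slide rows that held the arrays, and the differences within a row rest on 1 or 2 arrays a tissue. For miR-223, TEBs minus stroma was -0.68 in row 1 and -0.45 in row 2, and ducts minus stroma was -0.59 and -0.75. For miR-142-3p the same differences were -0.19 and -0.48, and -0.66 and -0.87. The direction against stroma was therefore the same in both rows for both miRNAs. TEBs minus ducts had opposite signs for miR-223, -0.09 in row 1 and 0.31 in row 2.

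How the arrays are brought to one scale carried weight for these differences. Another scaling shifted the differences of all miRNAs together: with the 75th percentile over all mouse miRNAs the median moved by 0.39 in TEBs over stroma, -0.16 in ducts over stroma and 0.55 in TEBs over ducts. With no scaling it moved by 0.25, 0.59 and -0.36, and with quantile normalization by 0.21, -0.04 and 0.12. A factor for each array moves every miRNA alike, so the distance of a miRNA from the median is nearly fixed under the percentile scalings and no scaling. Read against the median of all tested miRNAs, miR-223 lay at -0.36 in TEBs over stroma with both 75th percentiles and with no scaling, and at -0.45 with quantile normalization. In ducts over stroma it lay at -0.60, -0.60, -0.58 and -0.61 under the same 4 treatments. The distance was smaller with normexp, -0.24 in TEBs over stroma and -0.35 in ducts over stroma, and in TEBs over stroma it was -0.23 without TEB replicate 1.

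As plain differences, miR-223 in TEBs over stroma was -0.24 with the percentile over all miRNAs (adjusted p = 0.491 by limma), -0.39 with no scaling (adjusted p = 0.158) and -0.52 with quantile normalization (adjusted p = 0.0188). Its sign against stroma was negative under all 22 alternatives in both comparisons. Alternatives that changed only the filter, the variance model, the tissues fitted or the test left the difference at its main value. Those alternatives could not turn the sign and bear only on the call. TEBs over ducts had no stable sign for miR-223, from -0.31 with no scaling to 0.60 with the percentile over all miRNAs. miR-142-3p was negative against stroma under the same 22 alternatives, with the same limit. Its differences ran from -0.68 to -0.05 in TEBs and from -1.11 to -0.22 in ducts. It passed under 1 of the 22 alternatives in each comparison, normexp background correction with an offset of 50. Relative to the median, however, miR-142-3p in TEBs over stroma was at -0.16 in the main setting and at 0.24 without stroma replicate 2. The split of all calls moved as well: in TEBs over stroma it was 38 higher and 28 lower with the percentile over all miRNAs and 41 and 41 with no scaling. In ducts over stroma it was 11 and 8, and 52 and 4, and in TEBs over ducts 24 and 6, and 12 and 63. Quantile normalization gave 31 and 14 in TEBs over ducts.

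**Figure D3:**
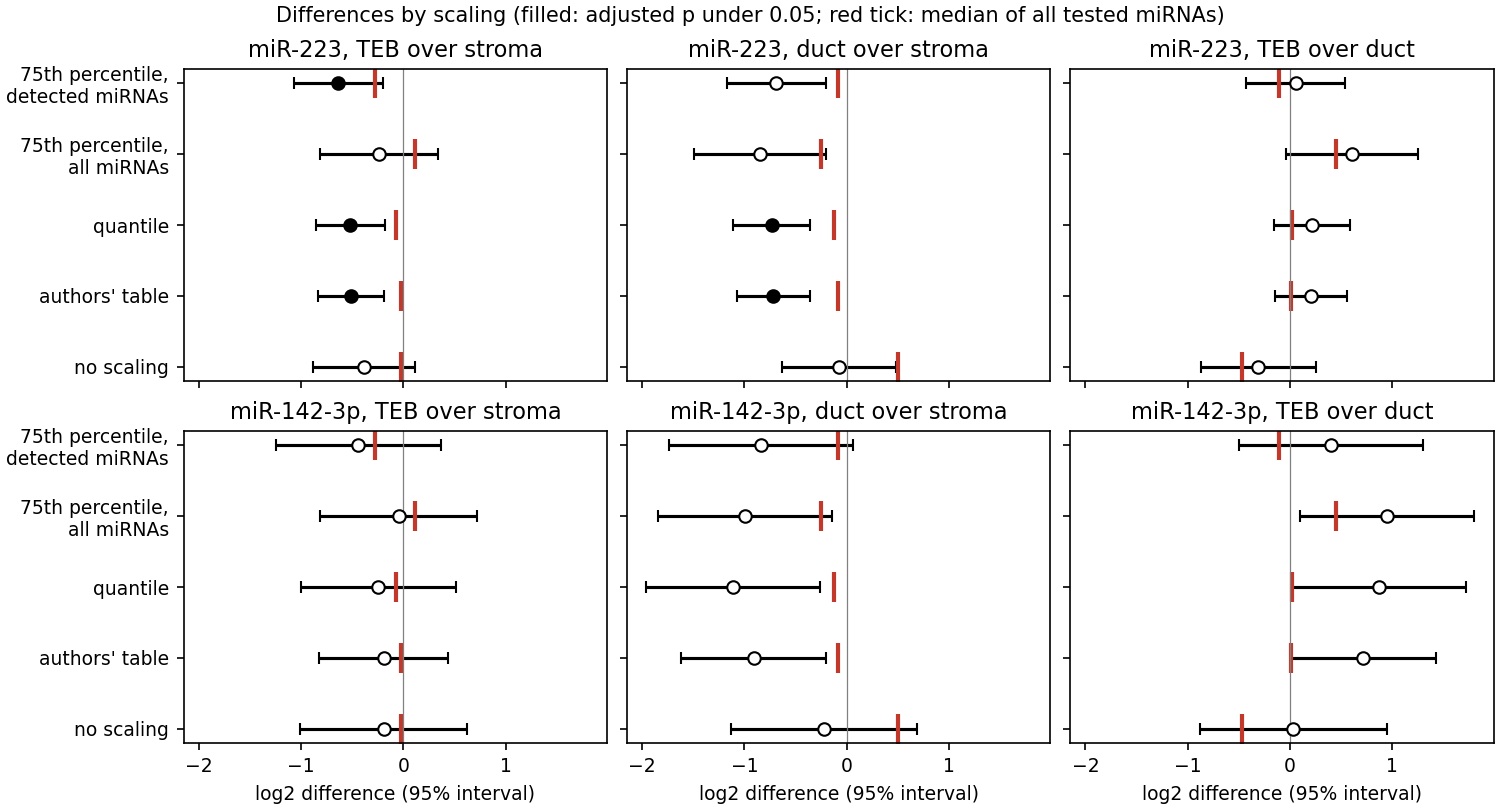
Log2 difference with its 95% interval (horizontal axis) of miR-223 and miR-142-3p in the 3 comparisons, under 5 treatments of the scale between arrays (rows). Filled points have an adjusted p under 0.05 (limma) and the red ticks mark the median of all 167 tested miRNAs. For miR-223 in TEBs over stroma the points run from -0.64 to -0.24 and differ from the ticks by -0.49 to -0.36, a distance that the percentile scalings and no scaling cannot move.

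The ratio of the detected pair within an array does not depend on the scaling. The log2 ratio of the miR-223 signal to the miR-142-3p signal was 3.33, 2.34 and 3.61 on stroma replicates 1, 2 and 3. It was 3.39 and 3.09 on the duct arrays and 2.73, 2.96 and 3.01 on the TEB arrays, and the scanner errors of these ratios were 0.22 to 0.40. The lowest ratio, on stroma replicate 2, goes with its high miR-142-3p signal and not with a low miR-223 signal. The means were 3.09 ± 0.67 in stroma (SD, n = 3), 3.24 ± 0.21 in ducts (SD, n = 2) and 2.90 ± 0.15 in TEBs (SD, n = 3). Epithelium and stroma differed by -0.06 (exact two-sided permutation p = 0.911), so no unequal change of the 2 miRNAs was detectable between them, and the sign turned when stroma replicate 1 (0.06), stroma replicate 3 (0.20) or TEB replicate 1 (0.02) was left out. TEBs lay below ducts on every array, by -0.34, with an exact permutation p of 0.1, the smallest that 10 arrangements allow. That size lies within the range of the scanner errors. Of single tested miRNAs, 65.3% separated TEBs from ducts in one direction or the other, and no such share was computed for ratios. No difference between TEBs and ducts is therefore read from the ratio.

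**Figure D4:**
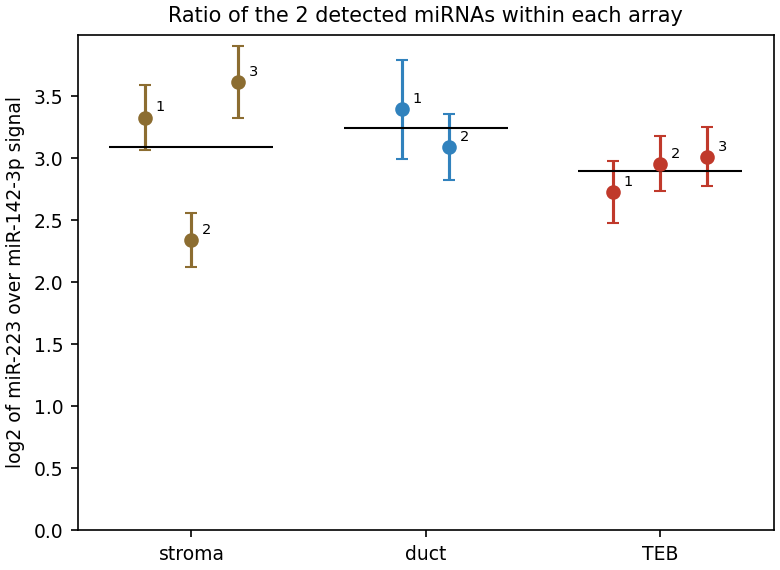
Log2 ratio of the miR-223 to the miR-142-3p signal (vertical axis) on each array by tissue, with replicate numbers, the error propagated from the scanner's errors as bars and the tissue mean as a black line. Stroma replicate 2 has the lowest ratio, 2.34. The 3 TEB arrays lie below both duct arrays, but the nearest of them, at 3.01 and 3.09, differ by less than their errors.

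Other miRNAs of blood-forming cells, from a list of 10, did not follow a single pattern. Of these, 4 were tested. Among the remaining 6, miR-181a and miR-181b, regulators of lymphocyte development, and miR-342-5p and miR-147 were detected on no array. miR-181c was detected on duct replicate 2 alone, and miR-511 on stroma replicates 2 and 3 and on no duct or TEB array. miR-511 had 12.0, 26.7 and 17.0 units in stroma, 21.7 and 10.2 in ducts and 2.39, 4.98 and 6.07 in TEBs. miR-342-3p, abundant in lymphocytes, had scaled signals of 122, 163 and 149 units in stroma, 128 and 113 in ducts and 147, 148 and 141.8 in TEBs. Its arrays overlapped in every pair of tissues except TEBs and ducts, and its differences were 0.02 in TEBs over stroma, -0.25 in ducts over stroma and 0.27 in TEBs over ducts, none of which passed. miR-146a, a brake on innate immune signalling, passed in none of the 3 comparisons either. Its relative miR-146b was higher in ducts than in stroma, by 2.43 on the log2 scale (adjusted p = 0.0364 by limma). It had 89.4 and 103 units in ducts, 12.0, 10.0 and 46.9 in stroma and 36.0, 41.4 and 47.1 in TEBs, the opposite order to miR-223 between ducts and stroma. miR-326 was lower in TEBs than in stroma by -0.90 (adjusted p = 0.0175) and lower than in ducts by -1.36 (adjusted p = 0.0183), with signals of 9.7 to 36.1 units near the detection limit. In all, 1 of the 4 tested passed in each comparison, beside 64.7% of all tested miRNAs in TEBs over stroma, 21.6% in ducts over stroma and 24.6% in TEBs over ducts, and the medians of the 4 were -0.12, 0.10 and -0.47. miR-150*, from the hairpin of miR-150, was the only other miRNA of the members' hairpins on the array and was detected on no array.

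miRNAs of other cells in the pieces moved between the tissues as well. The 3 red cell miRNAs, miR-451, miR-144 and miR-486, were all lower in TEBs than in stroma, with a median of -0.96 and adjusted p-values of 0.0274, 0.0216 and 0.0293 (limma), in a comparison where 74 of the 167 tested miRNAs were called lower. Their summed scaled signal was 2018 to 3622 units in stroma, 2617 and 3320 in ducts and 1385 to 1923 in TEBs. Nearly all of it came from miR-451, and all 3 miRNAs were detected in every tissue. In ducts over stroma, where miR-223 was at -0.69, 0 of the 3 passed with limma, also unadjusted, with a median of -0.15, and miR-451 was at 0.00. The intervals of all 3 hold the miR-223 value, from -1.38 to 0.52 for miR-144 to -0.70 to 0.71 for miR-451, and no difference between miR-223 and the red cell miRNAs was tested.

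miR-126-3p, the miRNA of endothelium, was lower than in stroma in both epithelial fractions, by -1.20 in TEBs (adjusted p = 0.000956) and -0.75 in ducts (adjusted p = 0.0222 by limma). It had 2765 to 3863 units in stroma, 1927 and 2061 in ducts and 1315 to 1650 in TEBs, and the other endothelial miRNA, miR-126-5p, was detected on no array. Of 5 miRNAs of fibroblasts and mural cells 4 were tested, and all but miR-145 were detected on every array. Their summed signals, mostly from miR-199a-3p, were 2467 to 2964 units in stroma, 3427 and 3512 in ducts and 3160 to 3779 in TEBs. In TEBs over stroma 3 of the 4 were higher and 1 lower, where 34 and 74 of all tested were, and in ducts over stroma 2 were higher, where 16 of all tested were. Of 4 muscle miRNAs 2 were tested, and 0 passed in any comparison with limma, beside the 64.7%, 21.6% and 24.6% of all tested, with 0, 0 and 1 at an unadjusted p under 0.05. The part that the content of epithelium, red cells, vessels and other cells played in the miR-223 values was not tested.

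**Figure D5:**
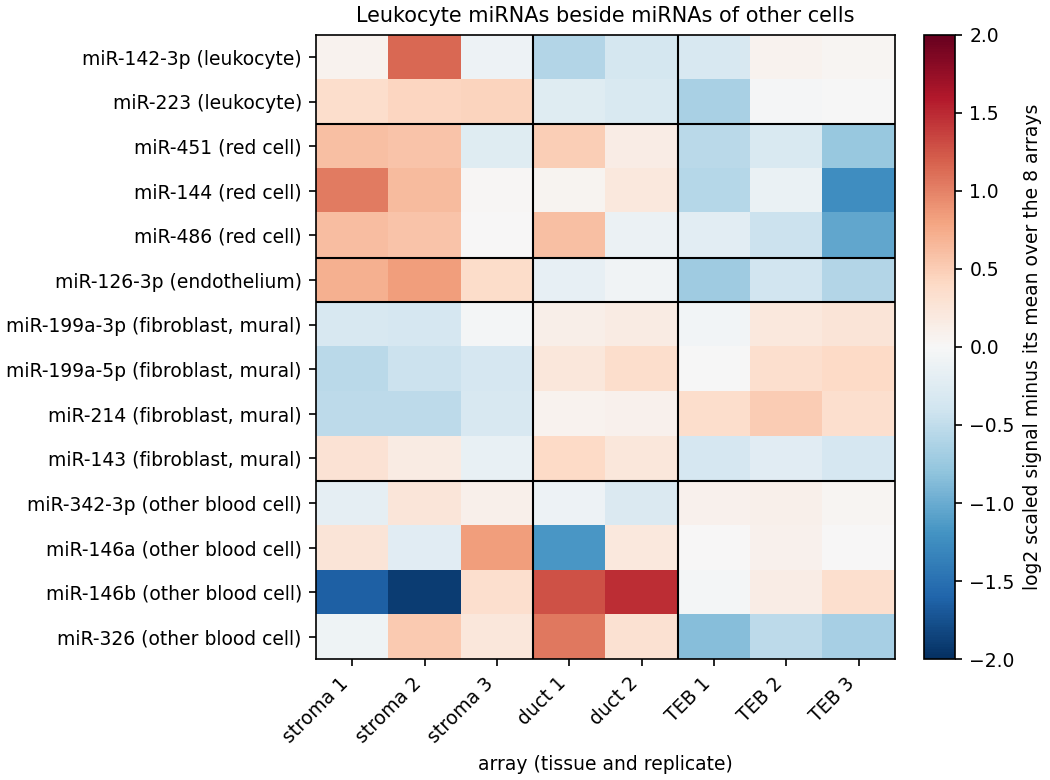
Log2 scaled signal minus its own mean over the 8 arrays (colour, red above and blue below the mean) for the detected leukocyte miRNAs and for those of red cells, endothelium, fibroblasts and mural cells, and other blood cells (rows), on each array (columns). miR-223 and miR-126-3p are above their means on all 3 stroma arrays and below them on the duct arrays, whereas miR-451 is above its mean on both duct arrays.

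The tested miRNAs most like each member over the 8 arrays were found by the root mean square difference of centred log2 profiles. For miR-223 they were let-7g (0.17), miR-103 (0.18) and miR-350 (0.18), against a median of 0.50 over the 166 others. The endothelial miR-126-3p was 34th, miR-142-3p 46th and the red cell miR-451 79th in that order. For miR-142-3p the nearest were miR-192 (0.31), miR-720 (0.35) and miR-193 (0.36), with a median of 0.64, and miR-223 was 8th at 0.38. The nearest profiles of both miRNAs were lower in one or both epithelial fractions than in stroma, as let-7g was by -0.57 in TEBs and -0.46 in ducts (adjusted p = 0.00337 and 0.0277 by limma). All 8 arrays share their scaling, and these distances are a description of the arrays.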

How the data were processed

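The authors deposited, for each of 8 arrays, the Agilent total gene signal (an intensity, background-subtracted and not normalized between arrays), its error and a detection flag, made with Feature Extraction 9.5.3 per the submitters' processing notes. A deposited table of log2 values served as an alternative, taken as quantile normalized from its upper values. Its 108 highest values, sorted, differed between arrays by at most 0.26. Within an array its values correlated with log2 scanner signals above 20 units with r of 0.996 to 0.999. What offset or floor it holds is unknown, and its column medians were 0.17 to 1.69.

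Here 39 viral and 22 control rows were left out. Arrays were scaled to the 75th percentile over the 108 miRNAs detected on all arrays, since the percentile over all 611 lay at 11.5 to 29.9 units, at the edge of detection. Signals under 1 were set to 1 and log2 taken. limma 3.58.1 (R 4.3.3, with lmFit, contrasts.fit and eBayes) was fitted to all 8 arrays and 167 miRNAs, with Benjamini-Hochberg adjustment within each comparison at 0.05. On simulated data with 30 miRNAs changed, the fit for TEBs over stroma recovered 35.5% of log2 changes of 0.5 and 71.2% of changes of 1. Of the calls, 6.58% and 4.9% were false, so changes of these sizes can be missed in such data. The simulated noise was independent between miRNAs and held no scaling error. In the data 108 of the 167 passed in TEBs over stroma, so these rates do not carry over to the members. Single values were compared by exact permutation. Differences between a pair of tissues share the arrays of the third through the fit. The number of arrays limits the precision.

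Groups came from the labels, and slide rows from the scanner's naming of the arrays. The miRNAs named were the 5 members, miRNAs of their hairpins, 10 further haematopoietic miRNAs, lists for red cells, endothelium, epithelium, fibroblasts with mural cells, and muscle, and the 3 nearest profiles. Members and lists were chosen with earlier results of these data known. The stroma replicate 2 lead was examined after its values were seen. Alternatives were other scalings, floors, filters, background correction, blocks, variance models, samples and tests, and leaving out each array. The RT-PCR and other experiments of the study were not analysed here.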

Additional observations from a re-analysis of the deposited data

How the results depend on the processing

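For the leukocyte miRNAs in TEBs over stroma, 1 passed in the main setting, 0 with the 75th percentile over all mouse miRNAs, with no scaling and with the methods' t-test after adjustment, and 2 with normexp. Leaving out single arrays gave 0 to 1, with 0 only without stroma replicate 2. In ducts over stroma, 0 passed in the main setting, 1 with quantile normalization, adding 16, only miRNAs detected on all 8 arrays, trend and robust estimation, only the 2 tissues compared, the authors' table and the methods' t-test (adjusted or not), and 2 with normexp. Leaving out arrays gave 0 to 1, with 1 only without TEB replicate 1. In TEBs over ducts 0 passed under all 22 alternatives. miR-223 in TEBs over ducts turned to -0.31 with no scaling and -0.012 with the replicate block, and ranged from -0.12 to 0.053 when arrays were left out. Its ratio to miR-142-3p, epithelium over stroma, was 0.074 in slide row 2 alone and -0.43 to 0.20 when arrays were left out.

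Of all tested miRNAs, 108 passed in TEBs over stroma, 66 with the percentile over all miRNAs, and 82 to 114 when arrays were left out. In ducts over stroma 36 passed, 19 with the percentile over all miRNAs, 56 with no scaling, 66 with normexp, and 26 to 40 when arrays were left out. In TEBs over ducts 41 passed, 75 with no scaling, 71 adding 16, 12 with the methods' t-test adjusted, and 5 to 70 when arrays were left out (5 without TEB replicate 2, 10 without duct replicate 1, 70 without TEB replicate 1). The cause was not tested. With the replicate block 16 passed there. Same-numbered arrays did not deviate together (mean r -0.10 over 7 pairs against 0.05 over 14 others), so the numbers were not taken as pairs, and the block changed no call for a member. Weak signals limit miR-142-5p, miR-150 and miR-155, for which no difference was detectable.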
